A study of Mus musculus with 22 samples.

Results

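Contractile genes of smooth muscle cells and myofibroblasts were followed, namely Acta2, Actg2, Tagln, Cnn1, Myh11, Myl9, Smtn, Lmod1, Tpm2 and Des. The 10 genes were all on the array, of 12393 genes with a probe of their own, and 16 probes were annotated to 1 of them only. Each gene was read from its probe with the highest mean over the 22 samples. Subcutaneous loose connective tissue of the trunk came from C57BL/6 mice, all males, with body weights of 19 to 24 g. The groups were in vivo stretched tissue (7 samples), in vivo shortened tissue (7), ex vivo stretched tissue (4) and ex vivo shortened tissue (4), where in vivo tissue was held in the animal and ex vivo tissue outside it. Each of the 11 animals gave a stretched and a shortened piece, assigned at random, so a stretched and a shortened sample of equal number came from 1 animal. Force and duration of the stretch are not in the labels, which name no treatment, allele or transgene. Values are log2 signals, so a difference of 1 is a doubling of signal, and errors of fitted differences are standard errors (SE).

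Smooth muscle cells contract when the myosin heavy chain Myh11 and its regulatory light chain Myl9 pull on filaments of the smooth muscle actins Acta2 and Actg2. Tagln (transgelin, SM22), Cnn1 (calponin), Smtn (smoothelin), Lmod1 (leiomodin) and Tpm2 (beta-tropomyosin) bind those filaments, and Des (desmin) forms intermediate filaments that link them. In loose connective tissue these genes are carried by the walls of small arteries and veins, by pericytes, and by myofibroblasts, the fibroblasts that gain Acta2 in wounds and under mechanical load. Tpm2 and Des also belong to skeletal muscle, which lies against this tissue as the panniculus carnosus. Serum response factor switches on many smooth muscle genes through a promoter element called the CArG box, and E-boxes (CANNTG) are read by factors of the MyoD family in skeletal muscle.

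Promoters of 7 of the 10 genes were at hand from RefSeq (GRCm38.p6), as windows of 250 bases before to 50 bases after the transcript start. Those of Acta2, Myl9 and Des are shown because Acta2 and Myl9 varied together between the pieces while Des followed skeletal muscle. They lie at chr19:34255324-34255623 (minus strand), chr2:156775214-156775513 (plus strand) and chr1:75360042-75360341 (plus strand). Capitals mark CArG boxes, with at most 1 G or C allowed among their 6 inner bases, and E-boxes.
Acta2: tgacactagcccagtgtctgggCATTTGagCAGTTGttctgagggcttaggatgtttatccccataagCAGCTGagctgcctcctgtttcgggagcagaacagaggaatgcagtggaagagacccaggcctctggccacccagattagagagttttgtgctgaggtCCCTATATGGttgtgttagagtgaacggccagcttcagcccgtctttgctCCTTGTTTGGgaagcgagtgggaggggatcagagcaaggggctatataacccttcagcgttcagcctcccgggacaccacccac
Myl9: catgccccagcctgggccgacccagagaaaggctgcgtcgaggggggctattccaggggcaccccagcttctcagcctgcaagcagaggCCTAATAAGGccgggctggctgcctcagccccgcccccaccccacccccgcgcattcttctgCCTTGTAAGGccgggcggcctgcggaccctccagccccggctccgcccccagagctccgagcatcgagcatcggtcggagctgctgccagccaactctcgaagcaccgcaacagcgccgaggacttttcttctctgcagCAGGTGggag
Des: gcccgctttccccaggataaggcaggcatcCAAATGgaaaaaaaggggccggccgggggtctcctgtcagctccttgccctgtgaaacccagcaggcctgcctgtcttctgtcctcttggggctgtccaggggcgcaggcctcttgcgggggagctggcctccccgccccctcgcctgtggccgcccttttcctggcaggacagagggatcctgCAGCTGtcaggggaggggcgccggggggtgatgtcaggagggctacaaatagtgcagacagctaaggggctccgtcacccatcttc
Acta2 held 2 CArG boxes, starting at -84 (CCCTATATGG) and -34 (CCTTGTTTGG) relative to the start, each with 1 inner G or C. Myl9 held 2 as well, at -161 (CCTAATAAGG, with no G or C inside) and -99 (CCTTGTAAGG). These were the 2 genes of the 7 with such a box, against 9.98% of all 32841 promoter windows, and the strict form stood in 1.63% of them. Pearson's r, with setting means subtracted, was 0.73 between Acta2 and Myl9 and 0.85 between Cnn1 and each of them. The window of Cnn1, not shown, held no CArG box of either form. Des had E-boxes at -220 and -36, and all 7 genes had at least 1, as did 72.3% of all windows. CArG boxes and E-boxes read the same on both strands, and none of those marked overlapped. A match describes these letters only.

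The median signal of a sample was 6.85 to 6.90 ex vivo against 7.28 to 7.41 in vivo, so the settings were probably normalized separately and no test was made across them. Skeletal muscle content was measured as an index, the mean log2 signal of 21 genes of skeletal muscle such as Acta1, Myh4 and Ckm, with none of the 10 genes in it. The index was 5.36 to 12.09 in in vivo stretched pieces (median 11.06), against 5.43 to 11.40 in in vivo shortened pieces (median 6.67). Ex vivo it was 5.16, 5.40, 9.96 and 11.27 in stretched pieces of animals 1 to 4, against 5.57, 5.29, 5.32 and 6.08 in their shortened pieces. Muscle content thus differed between the pieces of an animal by -0.07 to 5.41 in vivo and by -0.41 to 5.19 ex vivo, stretched minus shortened. The 3' minus 5' signal of Gapdh control probes also differed, at 0.11 to 0.27 in in vivo animals 1 to 3 and 0.87 to 3.61 in animals 4 to 7. RNA quality and sample labelling cannot be told apart in this signal, and its cause was not tested. Markers of the labelled tissue were high, with a fibroblast list mean of 12.23 to 12.54 in in vivo stretched and 12.43 to 12.76 in in vivo shortened tissue, and of 10.96 to 11.47 in ex vivo stretched and 11.07 to 11.49 in ex vivo shortened tissue. In bulk tissue fewer cells of a type and less RNA per cell cannot be told apart.

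Within animals in vivo, none of the 10 genes passed the test of stretched against shortened tissue. Des and Tpm2 had the largest differences, at 1.16 ± 0.34 and 1.00 ± 0.34, and the other 8 lay between -0.12 and 0.40. In limma with the animal as a block, 0 of 22626 probes had an adjusted p under 0.05 (0.0%). At an unadjusted p under 0.05, 2 of the 10 genes were higher and 0 lower, against 7.95% and 11.4% of all probes. The median over the 10 was 0.19, against -0.02 over all probes.

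Acta2, alpha-smooth muscle actin and the usual mark of the myofibroblast, gave 9.21 to 10.92 in in vivo stretched pieces (median 10.75), against 9.76 to 11.17 in in vivo shortened pieces (median 10.23). The groups overlapped almost entirely, and the lowest stretched piece was that of animal 1. Stretched minus shortened, animals 1 to 7 differed by -0.55, 0.07, 0.51, 0.92, 0.47, 0.56 and -0.88, so 5 of 7 were higher. The fitted difference was 0.16 ± 0.19 (adjusted p = 0.698 in limma). Actg2, the gamma-smooth muscle actin typical of the gut wall, gave 4.35 to 6.09 in in vivo stretched pieces (median 5.59), against 4.46 to 6.44 in in vivo shortened pieces (median 4.90). It was higher in the same 5 animals as Acta2, by 0.34 ± 0.20 over all 7 (adjusted p = 0.372).

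Neither myosin gene passed. Myh11, the heavy chain that defines mature smooth muscle, gave 5.13 to 7.87 in in vivo stretched pieces (median 7.18), against 5.67 to 7.64 in in vivo shortened pieces (median 6.74). It was higher in 4 of 7 animals, and animals 1 and 7 were lower, by -0.54 and -0.93. The difference of 0.22 ± 0.23 did not pass (adjusted p = 0.649). Myl9 was tighter, at 8.53 to 9.60 in in vivo stretched pieces (median 9.47), against 9.03 to 9.82 in in vivo shortened pieces (median 9.32). It differed by -0.07 ± 0.12, and animal 1 by -0.78 (adjusted p = 0.775).

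Of the actin-binding genes, Tagln gave 9.11 to 10.12 in in vivo stretched pieces (median 9.89), against 9.41 to 10.25 in in vivo shortened pieces (median 9.74). Cnn1, which slows the myosin ATPase, gave 4.02 to 5.61 in in vivo stretched pieces (median 5.08), against 4.27 to 5.61 in in vivo shortened pieces (median 5.01). Both groups overlapped for each gene, and the differences were 0.03 ± 0.15 for Tagln and 0.14 ± 0.17 for Cnn1. Smtn, found in fully contractile smooth muscle, varied least, at 7.73 to 8.25 in in vivo stretched pieces (median 8.03), against 7.78 to 8.43 in in vivo shortened pieces (median 8.17). It differed by -0.12 ± 0.09, with animal 1 at -0.70 and the other 6 between -0.12 and 0.11. Lmod1, which starts new actin filaments, spread more among stretched pieces, at 5.00 to 7.00 (median 6.34), against 5.50 to 6.34 in in vivo shortened pieces (median 5.69). Its difference was 0.40 ± 0.23, with animals 3 and 5 highest at 1.31 and 1.36 (adjusted p = 0.368).

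Among in vivo stretched pieces Tpm2 and Des were spread more widely than the rest, with standard deviations (SD) of 1.53 and 1.35. Among in vivo shortened pieces the SD was 0.97 for Tpm2 and 0.75 for Des, against 0.65 for Actg2 and 0.62 for Myh11. Tpm2 gave 7.91 to 11.95 in in vivo stretched pieces (median 10.88), against 8.02 to 10.89 in in vivo shortened pieces (median 8.85), and was higher in 6 of 7 animals. Des gave 7.58 to 11.23 in in vivo stretched pieces (median 9.17), against 7.23 to 9.14 in in vivo shortened pieces (median 8.05). It was the only one of the 10 that was higher in 7 of 7 animals, by 0.16, 0.07, 2.24, 0.03, 2.88, 0.93 and 1.80 in animals 1 to 7. Unadjusted p was 0.00708 for Des and 0.0152 for Tpm2, and after adjustment over all probes 0.172 and 0.182. With both probes of Des averaged, its difference was 0.59 ± 0.22, and the second probe alone gave 0.02 ± 0.11. Without animals 5 and 6, whose pieces differed most in muscle index, Des differed by 0.86 ± 0.35 and Tpm2 by 0.62 ± 0.27.

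**Figure D1:**
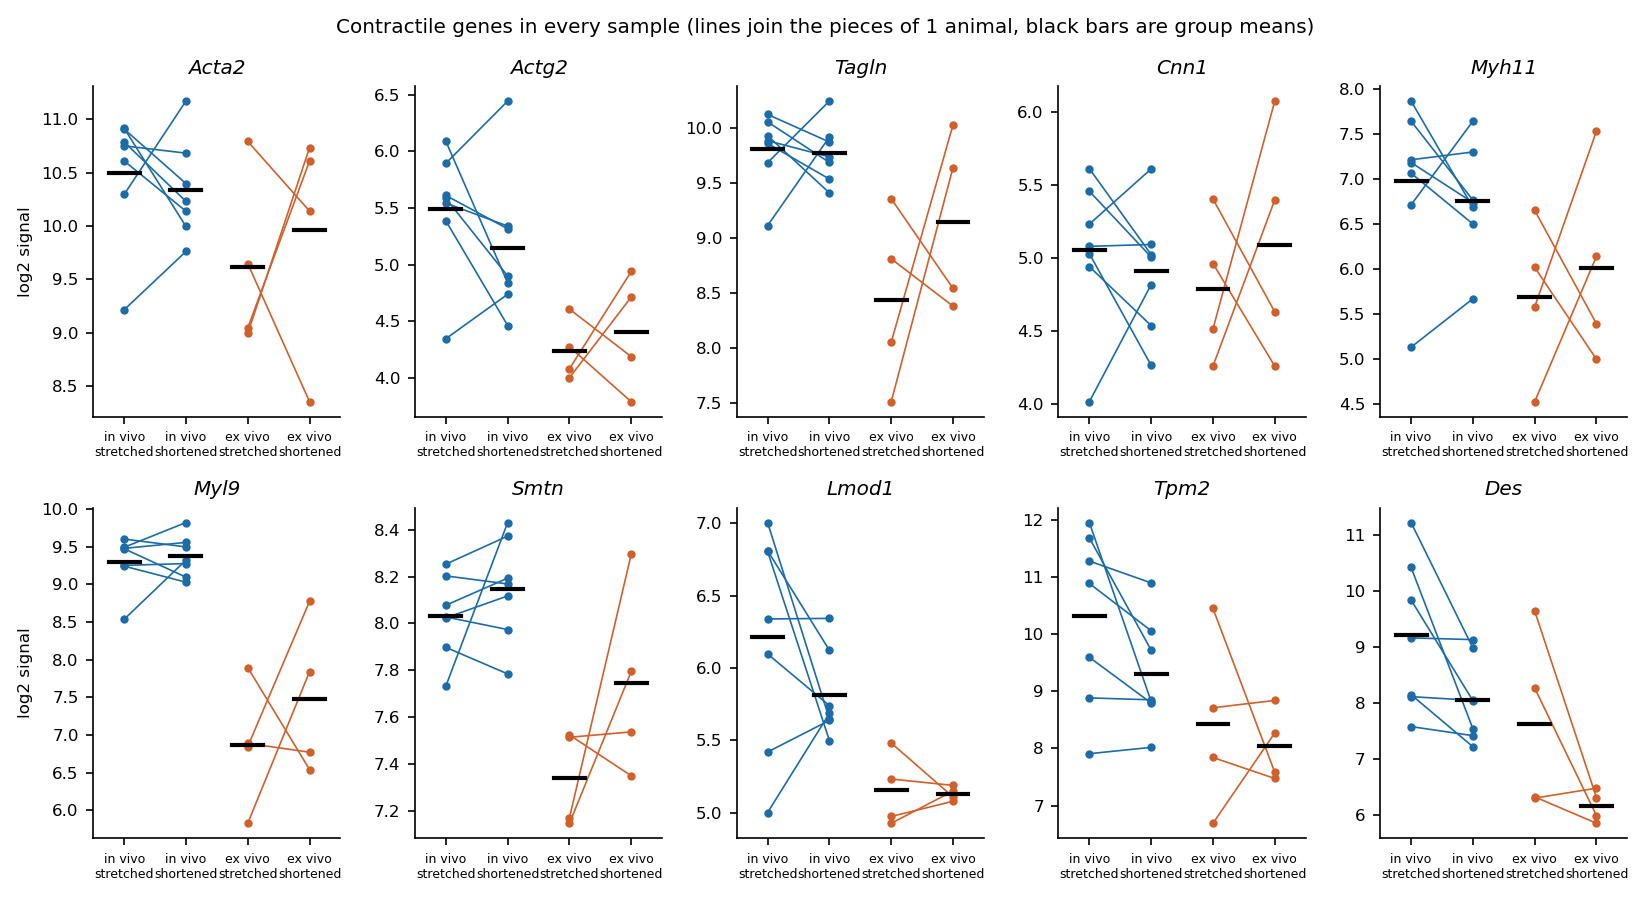
Log2 signal (vertical axis) of the 10 genes in each of the 22 samples, with stretched pieces left of shortened pieces in each setting, lines joining the pieces of 1 animal and black bars at group means. Most genes overlap between stretched and shortened pieces, while Des was higher in the stretched piece of 7 of 7 animals in vivo.

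Ex vivo, none of the 10 genes passed either, and the animals were split. All 10 genes were higher in the stretched piece of animal 1 and 9 of 10 in that of animal 4, while 10 of 10 were lower in animal 2 and 9 of 10 in animal 3. The stretched piece of animal 1 stood apart in its Gapdh 3' minus 5' signal, at 0.91, against 0.05 to 0.19 in the other 7 ex vivo samples. The part of that signal in these differences was not tested. In limma 0 of 22626 probes had an adjusted p under 0.05 (0.0%). At an unadjusted p under 0.05 only Des was higher, 1 of 10 against 5.23% of all probes, and none was lower against 5.85%. The median difference of the 10 was -0.31, against 0.00 over all probes.

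Acta2 gave 9.65, 9.05, 8.99 and 10.79 in the ex vivo stretched pieces of animals 1 to 4, against 8.35, 10.61, 10.73 and 10.14 in their shortened pieces. Its differences of 1.30, -1.56, -1.74 and 0.65 had both signs and reached further than the in vivo range of -0.88 to 0.92. They averaged -0.34 ± 0.52 (adjusted p = 0.844). Myh11 gave 6.02, 4.53, 5.58 and 6.65 in ex vivo stretched pieces, against 5.00, 6.14, 7.53 and 5.39 in ex vivo shortened pieces. It had the sign of Acta2 in each of the 4 animals, with a mean of -0.32 ± 0.58. Tagln gave 8.81, 7.51, 8.06 and 9.36 in ex vivo stretched pieces, against 8.38, 9.64, 10.03 and 8.54 in ex vivo shortened pieces. It was lowest against its pair in animals 2 and 3, at -2.13 and -1.97, and differed by -0.71 ± 0.53 over all 4 (adjusted p = 0.660).

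Myl9 gave 6.89, 5.83, 6.85 and 7.89 in ex vivo stretched pieces, against 6.77, 7.84, 8.77 and 6.54 in ex vivo shortened pieces. The fitted differences were -0.62 ± 0.56 for Myl9, -0.31 ± 0.42 for Cnn1, -0.17 ± 0.25 for Actg2 and -0.41 ± 0.22 for Smtn, none of them past the test. Lmod1 hardly varied among ex vivo shortened pieces (5.08 to 5.19) and differed by 0.02 ± 0.12, but its signal was low, with 4.93 to 5.48 in ex vivo stretched pieces. Des stood apart from these genes, at 6.33, 6.31, 8.27 and 9.65 in ex vivo stretched pieces, against 5.86, 6.49, 5.99 and 6.32 in ex vivo shortened pieces. It was high only in the stretched pieces of animals 3 and 4, those with a high muscle index, and differed by 1.48 ± 0.55 (adjusted p = 0.419). That difference was 0.86 without animal 4, 0.15 without animals 3 and 4, and 0.73 with both probes averaged. Tpm2 gave 7.84, 6.69, 8.71 and 10.45 in ex vivo stretched pieces, against 7.48, 8.27, 8.84 and 7.58 in ex vivo shortened pieces, with a difference of 0.38 ± 0.63 that was -0.45 without animal 4 and 1.34 with its 4 probes averaged. Leaving out animal 2 or 3 turned the mean of Acta2 to 0.07 or 0.13.

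The stretch effect itself was compared between the settings. The in vivo effect was above the ex vivo effect for 9 of the 10 genes, with a median of 0.50 against -0.01 over all probes. None passed or had an unadjusted p under 0.05, against 15.3% of probes. Most of the 10 shared a sign within each ex vivo animal, so they are not 10 separate observations. The largest difference between the settings was that of Tagln, at 0.75 ± 0.52 (adjusted p = 0.529 in limma), and Des was the exception at -0.32 ± 0.70 (adjusted p = 0.871). Over all probes 40 had an adjusted p under 0.05 (0.177%), a count that ran from 0 without in vivo animal 2 or ex vivo animal 3 to 663 without ex vivo animal 1.

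Whether a gene followed skeletal muscle content was asked with the slope of its log2 signal on the muscle index within animals, where 1 means as steep as the index itself. In vivo 2 of the 10 genes, Tpm2 and Des, passed with a slope above 0, against 117 of 22626 probes (0.517%). Tpm2 rose by 0.51 ± 0.07 per unit of index (adjusted p = 0.00966 in limma) and Des by 0.54 ± 0.08 (adjusted p = 0.0165). For comparison Acta1, the actin of skeletal muscle, had a slope of 1.08 ± 0.08 and parvalbumin, Pvalb, 1.12 ± 0.02, though both are part of the index. Lmod1 came next at 0.22 ± 0.07, with an unadjusted p of 0.0108 that did not pass over all probes (adjusted p = 0.279). The other 7 had slopes from -0.00 to 0.12 with adjusted p from 0.495 to 0.997. Among them Acta2 had 0.08 ± 0.07, Myh11 0.08 ± 0.09, Myl9 -0.00 ± 0.05 and Smtn 0.01 ± 0.04. Both calls were lost without animal 5, the pair of most unequal muscle (adjusted p = 0.859 for Tpm2 and 0.850 for Des, at slopes of 0.41 and 0.56). Without animal 6, the next most unequal pair, both passed (adjusted p = 0.00202 for Tpm2 and 0.00673 for Des). Without animal 7 or with an index of sarcomere genes only, Des narrowly failed (adjusted p = 0.0543 and 0.0514), and with stretch as a term beside the index both failed (0.323 for Tpm2 and 0.598 for Des). Without animals 5 and 6 Tpm2 failed (slope 0.68, adjusted p = 0.158) and Des passed (slope 0.99, adjusted p = 0.0436). In animals 1 to 3 alone, those of low Gapdh difference, Tpm2 and Des passed at slopes of 0.92 and 1.06 (adjusted p = 0.0171 and 0.017). In that fit 2740 of the 22626 probes were called, against 117 with all animals. Its 3 pairs differed in muscle index by only -0.07, 0.82 and 1.76.

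**Figure D2:**
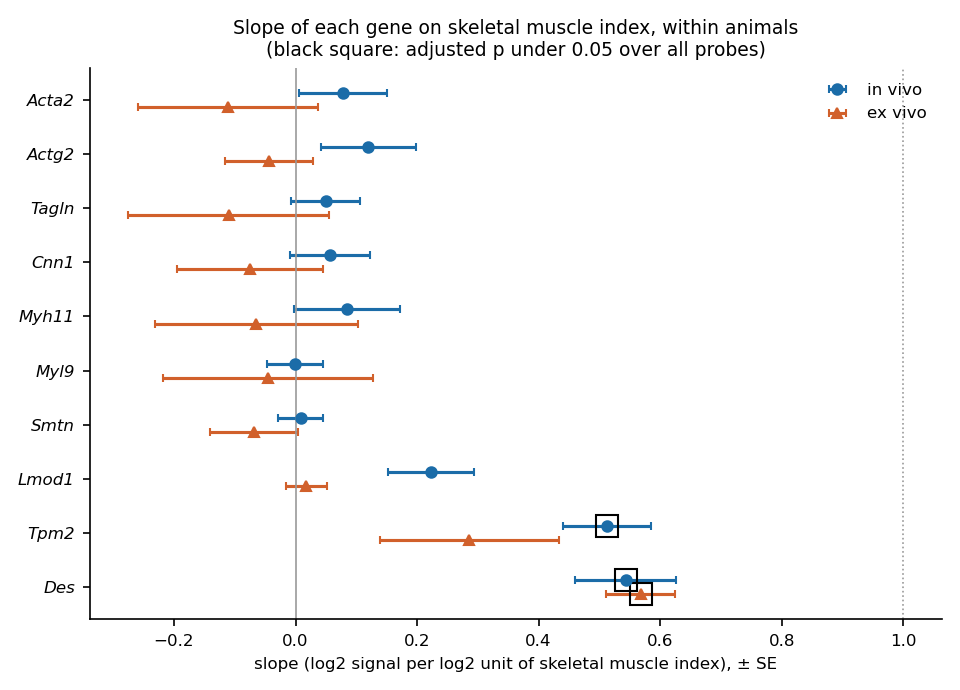
Slope of each of the 10 genes on the skeletal muscle index within animals (horizontal axis, log2 signal per log2 unit, bars are SE, dotted line at the slope of the index itself, 1), in vivo as circles and ex vivo as triangles, with black squares where the adjusted p was under 0.05. Des stands at 0.54 in vivo and 0.57 ex vivo, and Acta2, Tagln, Cnn1, Myh11, Myl9 and Smtn stand near 0.

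The ex vivo animals, which share no sample with the in vivo ones, gave a similar slope for Des. It was 0.57 ± 0.06 (adjusted p = 0.0114), 1 of 10 genes against 94 probes in all (0.415%). Tpm2 had 0.29 ± 0.15 and did not pass (adjusted p = 0.556), and Lmod1, at low signal ex vivo, had 0.02 ± 0.03. The slopes of the other 7 lay between -0.11 and -0.04, none past the test. The 2 ex vivo pairs with unequal muscle differed from each other in the other genes. In animal 3 the index differed by 4.64 and Des by 2.28, while Acta2 differed by -1.74, Tagln by -1.97 and Myl9 by -1.93. In animal 4 the index differed by 5.19 and Des by 3.33, and Acta2 by 0.65, Tagln by 0.81 and Myl9 by 1.35. In vivo animal 4 had pieces of nearly equal muscle, with an index difference of 0.04 and Des at 0.03, but Acta2 at 0.92, Actg2 at 1.25 and Myh11 at 1.18. Without ex vivo animal 4 the slope of Des was 0.48 (adjusted p = 0.230), and without animals 3 and 4, whose pieces carry nearly all the muscle difference ex vivo, it was -1.18 with 0 probes called. The call was also lost with stretch as a term (0.52, adjusted p = 0.235) and with both probes of Des averaged (0.28, adjusted p = 0.0759).

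**Figure D3:**
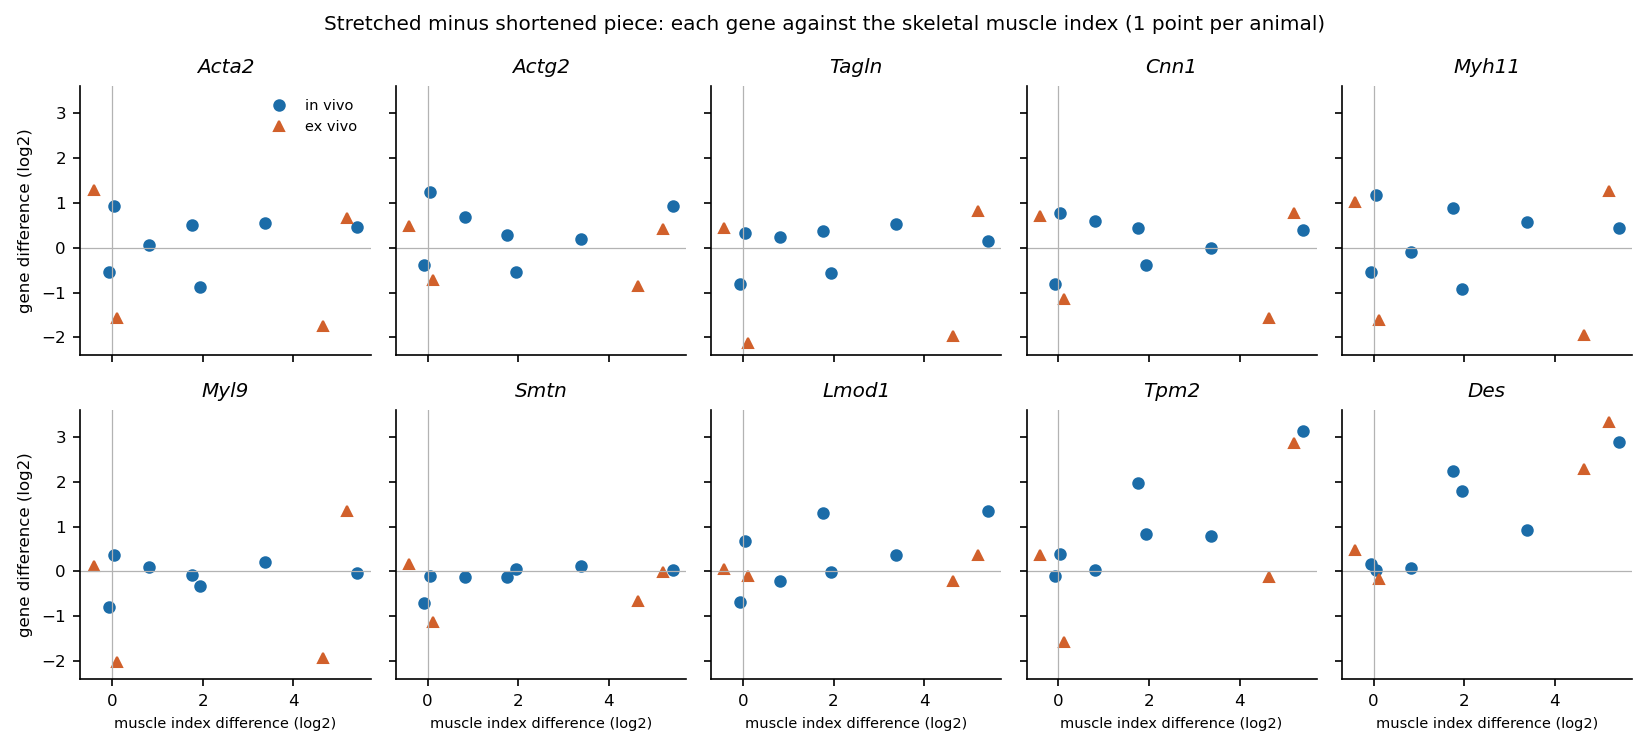
Stretched minus shortened log2 difference of each gene (vertical axis) against that of the skeletal muscle index (horizontal axis), 1 point per animal, circles in vivo and triangles ex vivo. Des and, in vivo, Tpm2 climb with the index to 2.88 and 3.13 at an index difference of 5.41, while Acta2 and Myh11 scatter around 0.

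The 4 probes of Tpm2 differed in how closely they followed muscle. In vivo their slopes were 0.51 for the probe used, 0.65 ± 0.07, 0.78 ± 0.08 and 1.00 ± 0.05, each with an adjusted p under 0.05. Ex vivo they were 0.29, 0.45 ± 0.17, 0.77 ± 0.07 and 1.00 ± 0.07, and only the last 2 passed (adjusted p = 0.00654 and 0.0019). The steepest probe gave 4.13, 3.35, 8.78 and 10.19 in ex vivo stretched pieces, against 4.23, 4.22, 4.56 and 4.58 in ex vivo shortened pieces. The probe used differed in animal 3 by -0.13, where the steepest one differed by 4.22. Tpm2 is spliced differently in smooth and skeletal muscle, and which transcripts each probe reads is not given in the sources used here. Second probes of Acta2, Myh11 and Des had mean log2 signals of 4.28, 4.54 and 4.64 over all samples, where values on the array ran from 1.89 to 14.4. The probes used for Actg2 and Cnn1 were nearly as low, at 4.96 and 4.97. The second probe of Des had an in vivo slope of 0.07 ± 0.04, which did not pass (adjusted p = 0.410).

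At equal muscle index, that is with the index as a covariate, the in vivo stretch difference of Des was 0.27 ± 0.32 and that of Tpm2 0.06 ± 0.29, against 1.16 and 1.00 without it. Acta2 differed by 0.02 ± 0.29 and Myh11 by 0.12 ± 0.34. Smtn, at -0.28 ± 0.12 (adjusted p = 0.817 in limma), was the 1 gene of 10 with an unadjusted p under 0.05, against 2.88% of all probes on the lower side. No probe passed in either setting (0.0%), while 5.22% in vivo and 8.68% ex vivo had an unadjusted p under 0.05. Ex vivo Des differed by 0.23 ± 0.28 and Tagln by -0.85 ± 0.79.

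Acta2, Tagln, Cnn1, Myh11 and Myl9, a set chosen after their values were seen, varied together. Over the 22 samples, with each setting's mean subtracted, Pearson's r between any 2 of them was 0.73 to 0.93, the highest between Tagln and Myl9. With Des the same 5 had r of 0.11 to 0.37 and with Tpm2 0.41 to 0.68. Tpm2 and Des went together at 0.86, and with the muscle index both had 0.90, Lmod1 0.71, Acta2 0.29 and Tagln 0.07. These are descriptions over samples that share animals and arrays. By animal, all 5 were lower in stretched pieces of in vivo animals 1 and 7 and ex vivo animals 2 and 3, and all 5 were higher in in vivo animal 4 and ex vivo animals 1 and 4. In in vivo animals 2, 3, 5 and 6, 4 of the 5 were higher.

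**Figure D4:**
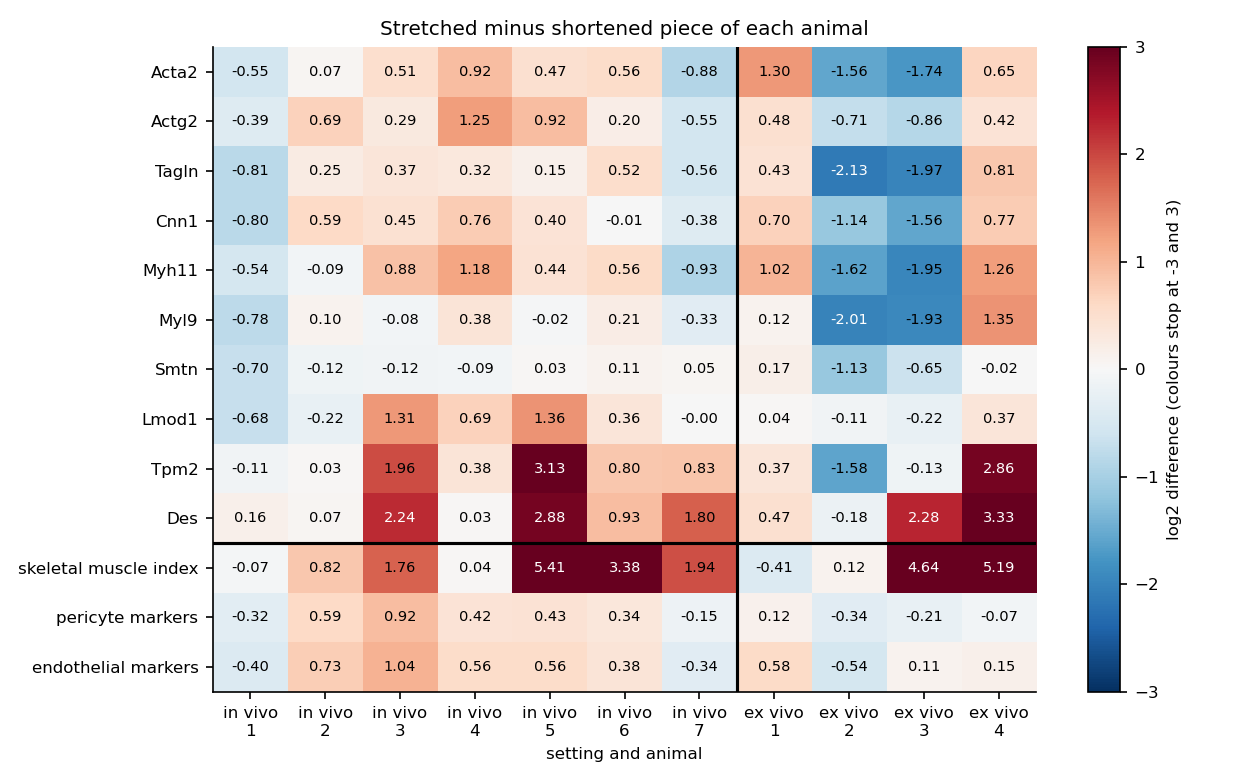
Stretched minus shortened log2 difference (colour and number) for each gene (upper rows), for the skeletal muscle index and for the mean of pericyte and endothelial markers (lower rows), in the 7 in vivo and 4 ex vivo animals. Acta2 to Myl9 share a sign in most animals, while Des and Tpm2 are highest in in vivo animal 5 and ex vivo animal 4, at 2.88 and 3.33 for Des.

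Means of vessel and fat markers mostly had the sign of Acta2 in vivo. The mean of 9 endothelial markers differed by -0.40, 0.73, 1.04, 0.56, 0.56, 0.38 and -0.34 in animals 1 to 7, and that of 7 pericyte markers by -0.32, 0.59, 0.92, 0.42, 0.43, 0.34 and -0.15, both with the signs of Acta2. The mean of 5 adipocyte markers differed by -0.56, 0.94, 0.84, 0.46, 0.55, 0.03 and 0.34, with the sign of Acta2 in 6 of 7 animals. The skeletal muscle index also had the sign of Acta2 in every animal except animal 7. Other contractile genes departed from that sign, Myl9 in animals 3 and 5 (-0.08 and -0.02), Myh11 in animal 2 (-0.09) and Cnn1 in animal 6 (-0.01). The fibroblast mean was lower in every animal except animal 7, and a mean of macrophage markers in every animal except animal 1. The pericyte mean ranged from 7.38 to 9.01 in in vivo stretched and 7.69 to 8.62 in in vivo shortened tissue, and the endothelial mean from 7.08 to 9.15 in in vivo stretched and 7.48 to 8.53 in in vivo shortened tissue. Ex vivo the endothelial mean differed by 0.58, -0.54, 0.11 and 0.15 the pericyte mean by 0.12, -0.34, -0.21 and -0.07, and the adipocyte mean by 0.92, -0.63, 0.59 and -0.28. The adipocyte mean ranged from 9.48 to 12.79 in in vivo stretched and 10.03 to 12.30 in in vivo shortened tissue. In vivo 9 of 9 endothelial and 6 of 7 pericyte markers were higher in the fit, and none passed. Their median differences were 0.38 and 0.33, against -0.02 over all probes. The smallest p of each list belonged to the endothelial gene Emcn (0.38 ± 0.15) and the potassium channel subunit Abcc9 (0.59 ± 0.13). Median in vivo slopes on the muscle index were 0.13 for the endothelial and 0.12 for the pericyte list, against -0.01 over all probes. The part of these markers in the variation of the contractile genes was not tested. Heart muscle markers were low throughout, with a list mean of 3.70 to 4.37 over all samples.

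Genes whose pattern over the 22 samples was most like that of 3 of the 10 were read by Pearson's r, with each setting's mean subtracted. For Acta2 they were Ppp1r14a (0.83), Ccn2 (0.79), Gata2 (0.78), Pln (0.78) and Cyp2e1 (0.77). For Myh11 they were again Ppp1r14a (0.90), then Gucy1b1 (0.85), Vwf (0.85), Chd7 (0.83) and Gata2 (0.83). Ppp1r14a encodes CPI-17, which holds myosin phosphatase in check, Gucy1b1 a subunit of the receptor for nitric oxide, and Vwf the von Willebrand factor of endothelial cells. Des had closer matches, Nrap, Rtn2, Pfkm, Alpk3 and Eef1a2, with r of 0.96 to 0.97. Nrap encodes a protein of myofibril assembly and Pfkm the phosphofructokinase of muscle, and their in vivo slopes on the muscle index were 0.52 ± 0.08 and 0.46 ± 0.07 (adjusted p = 0.0255 and 0.0134). Rtn2 passed as well (0.53 ± 0.09, adjusted p = 0.0273), while Eef1a2 (0.53 ± 0.10, adjusted p = 0.0638) and Alpk3 (0.33 ± 0.07, adjusted p = 0.0852) did not.

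Related genes were taken from lists. Of 15 further genes of thin filaments and the cytoskeleton, 7 were higher and 8 lower in vivo with a median of -0.05, and none passed. At an unadjusted p under 0.05, 3 were higher and 4 lower, against 7.95% and 11.4% of all probes. Tpm1, a tropomyosin of striated and smooth muscle, differed by 1.33 ± 0.46 in vivo, and was the 1 gene of this list whose slope on the muscle index passed in each setting (0.74 ± 0.03 in vivo, adjusted p = 2.17e-06, and 0.53 ± 0.07 ex vivo, adjusted p = 0.0346). Fhl1 differed by 0.33 ± 0.12, the calponin Cnn3 by -0.22 ± 0.06 and Pdlim7 by -0.18 ± 0.06. Of 7 measured genes that control contraction none had an unadjusted p under 0.05 in vivo, against 19.3% of all probes, with Ppp1r14a at 0.35 ± 0.17 and myosin light chain kinase, Mylk, at 0.22 ± 0.14.

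Of 7 transcription factors and coactivators of smooth muscle genes, 2 were higher and 5 lower in vivo, with a median of -0.06. The coactivators of serum response factor Mrtfb and Mrtfa differed by -0.21 ± 0.09 and -0.16 ± 0.09 in vivo, and by 0.02 ± 0.10 and 0.23 ± 0.10 ex vivo, none past the test. Of 10 matrix genes of myofibroblasts 8 were lower in each setting, with medians of -0.08 in vivo and -0.42 ex vivo, against -0.02 and 0.00 over all probes. At an unadjusted p under 0.05, 4 of the 10 were lower in vivo, against 11.4% of all probes, and 5 of the 10 ex vivo, against 5.85%. Their median slope on the muscle index was -0.03 in vivo and -0.14 ex vivo, against -0.01 over all probes in each setting. At equal muscle index the median difference was -0.07 in vivo and -0.24 ex vivo, against -0.01 and 0.03 over all probes. At equal index 1 of the 10 was lower in vivo at an unadjusted p under 0.05, against 2.88% of all probes. Fap, a surface protease of activated fibroblasts, differed by -0.21 ± 0.05 in vivo and -0.57 ± 0.17 ex vivo, and the collagen crosslinker Lox by -0.18 ± 0.07 and -0.55 ± 0.18. Col1a1 differed by -0.12 ± 0.05 in vivo and -0.34 ± 0.12 ex vivo, and none of the 10 passed over all probes in either.

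Levels were also set side by side between ex vivo and in vivo tissue, as values minus the median of each sample and with no test, since normalization and setting cannot be told apart. In shortened tissue Des averaged -0.71 ± 0.30 ex vivo (SD, n = 4) and 0.73 ± 0.74 in vivo (SD, n = 7). It was the 1 gene of 10 that lay lower ex vivo without overlap, against 22.8% of all probes, and none was higher without overlap, against 29.4%. Myl9 averaged 0.61 ± 1.04 ex vivo (SD, n = 4) and 2.04 ± 0.26 in vivo (SD, n = 7) in shortened tissue, with ranges that overlapped. In stretched tissue Myl9 averaged -0.02 ± 0.84 ex vivo (SD, n = 4) and 1.96 ± 0.35 in vivo (SD, n = 7), without overlap, 1 of 10 genes against 20.3% of all probes, and none was higher, against 26.1%. Acta2 differed little between the settings in shortened tissue, at 3.09 ± 1.12 ex vivo (SD, n = 4) and 3.01 ± 0.47 in vivo (SD, n = 7). In stretched tissue it averaged 2.73 ± 0.84 ex vivo (SD, n = 4) and 3.17 ± 0.60 in vivo (SD, n = 7). With values that were not centred, Acta2 differed by -0.38 in shortened and -0.88 in stretched tissue, ex vivo minus in vivo. Acta2, Tagln, Cnn1, Myh11 and Myl9 had SD of 0.82 to 1.13 among ex vivo shortened pieces and 0.26 to 0.63 among in vivo shortened pieces. Smtn also had the larger SD ex vivo, at 0.42 against 0.20. The other genes had the smaller SD ex vivo, Actg2 with 0.53 against 0.66, Lmod1 0.04 against 0.33, Tpm2 0.65 against 0.98 and Des 0.30 against 0.74. No share over all probes was counted for SD.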

How the data were processed

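RNA extracted with Tri-Reagent was labelled as biotin cRNA and measured on arrays, 1 per sample. The values used are the deposited log2 signals, which per the submitters' processing notes came from RMA and the affy package, with no versions given. RMA corrects background, normalizes quantiles and summarises probe sets. Tests covered 22626 of the 22690 probes, all but 64 controls. Symbols came from the platform annotation, updated by gene ID, with 20380 probes of 1 symbol, 691 of several and 1555 of none. No samples held identical values, and the number of arrays limits the precision.

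Models were fitted in R 4.3.3 by limma 3.58.1 (eBayes with its trend option) and p-values adjusted by Benjamini-Hochberg across the 22626 probes, with calls at 0.05. The animal was a block, since the design text pairs the pieces of an animal. Deviations from group means correlated within animals at 0.38 to 0.87 in vivo and 0.11 to 0.28 ex vivo. Fits were tested on simulated data with known effects and the same noise for every probe, which checks the code and not the power in these data. Of 23 genes listed for the muscle index 21 were measured. The genes named are the 10 members, up to 4 genes of each related list with the smallest in vivo p, and the 5 genes most like Acta2, Myh11 and Des. The members, lists and tests were chosen with earlier results of these data known. Alternatives were another normalization, a minimum mean of 6, no trend, no block, all probes of a gene averaged, other muscle indexes and leaving out each animal. Sets of animals by Gapdh difference, and leaving out the muscle-rich pairs, were added after seeing the data.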

Additional observations from a re-analysis of the deposited data

Results flagged for a closer look

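The stretched piece of in vivo animal 1 stood far below the other 6 stretched pieces in 5 of the 10 genes. It had 9.21 for Acta2, 4.35 for Actg2, 4.02 for Cnn1, 5.13 for Myh11 and 8.53 for Myl9. Smtn stood out in the same animal as a difference, with -0.70 for stretched minus shortened against -0.12 to 0.11 in the other 6 animals. These were the 6 values past Dixon's limit among 60 sets of values tested, where chance gives about 1 in 20, and the 10 genes are not independent of each other. The endothelial and pericyte marker means differed by -0.40 and -0.32 in that animal, and their part was not tested.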

How the results depend on the processing

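No member tested passed the stretch test in either setting under any alternative run, nor did any other probe. With a minimum mean of 6, Actg2 and Cnn1 were filtered out in vivo. Ex vivo that filter removed Actg2, Cnn1, Myh11 and Lmod1. The in vivo slopes of Des and Tpm2 stayed above 0 under each alternative run, at 0.31 to 1.06 for Des and 0.41 to 0.92 for Tpm2. The call of each was lost without animal 5 and with stretch as a term. That of Des was also lost without animal 7 and with the sarcomere index, and that of Tpm2 also without animals 5 and 6. For the muscle slope in vivo 117 probes were called, and 546 without the replicate block, 179 with an index of calcium and energy genes, 49 with stretch as a term, 49 without animals 5 and 6, 2740 in the animals of low Gapdh difference and 34 to 216 when each animal was left out. Of the 10 genes 2 passed as reported, 1 with the sarcomere index, 1 without animals 5 and 6, 0 with stretch as a term and 0 to 2 when each animal was left out. Ex vivo 94 probes were called, and 181 without the replicate block, 31 with stretch as a term, 0 without animals 3 and 4 and 57 to 116 when each animal was left out. The 1 gene called there was lost (0) with all probes of a gene averaged, with stretch as a term, without animals 3 and 4 and, over the range of 0 to 1, when animal 4 was left out. For the stretch effect in vivo minus ex vivo 40 probes were called, and 5 with quantile normalization, 74 with a minimum mean of 6, 4 with no trend, 3 without the replicate block and 0 to 663 when each animal was left out. At equal muscle index ex vivo the count of 0 was 1 without the replicate block and 0 to 31 when each animal was left out. With deposited values that were not centred, 3 of the 10 genes and 10559 probes lay lower ex vivo without overlap in shortened tissue, and 2 genes and 9719 probes in stretched tissue.

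The following values turned in sign, among them the called ex vivo slope of Des. The in vivo stretch difference was -0.085 for Tagln without animals 5 and 6 and -0.062 for Tagln in animals of low Gapdh difference, and in those of high difference 0.059 for Myl9 and 0.027 for Smtn. Ex vivo it was -0.031 for Lmod1 and -0.60 for Tpm2 without animals 3 and 4. The in vivo slope was 0.0018 for Myl9 with quantile normalization, 0.0021 for Myl9 with the sarcomere index, 0.042 for Myl9 with stretch as a term, 0.035 for Myl9 and -0.0042 for Smtn without the replicate block, -0.067 for Smtn in animals of low Gapdh difference, and -0.088 for Acta2, -0.022 for Tagln, -0.032 for Myh11 and -0.020 for Smtn without animals 5 and 6. The ex vivo slope was 0.052 for Acta2, 0.0069 for Actg2, 0.0080 for Cnn1, 0.067 for Myh11 and 0.051 for Myl9 without the replicate block, 0.056 for Tagln, 0.14 for Myl9 and 0.021 for Smtn with stretch as a term, and -0.17 for Lmod1, -1.85 for Tpm2 and -1.18 for Des without animals 3 and 4. At equal muscle index in vivo the difference was -0.0058 for Acta2 and -0.081 for Myh11 without the replicate block, -0.070 for Des without animals 5 and 6, -0.47 for Acta2, -0.57 for Myh11, -0.33 for Tpm2 and -0.14 for Des in animals of low Gapdh difference and -0.010 for Tpm2 in those of high difference. When each animal was left out, the in vivo stretch difference ranged over -0.046 to 0.17 for Tagln and -0.15 to 0.044 for Myl9, and the ex vivo one over -0.88 to 0.13 for Acta2, -0.38 to 0.064 for Actg2, -0.67 to 0.11 for Cnn1, -0.095 to 0.10 for Lmod1, -0.85 to 0.22 for Myh11 and -0.45 to 1.03 for Tpm2. The slope ranged over -0.020 to 0.014 for Myl9 in vivo and over -0.40 to 0.099 for Acta2, -0.20 to 0.070 for Actg2, -0.35 to 0.13 for Cnn1, -0.049 to 0.070 for Lmod1, -0.44 to 0.22 for Myh11, -0.42 to 0.25 for Myl9, -0.44 to 0.14 for Tagln and -0.043 to 0.54 for Tpm2 ex vivo. The difference at equal index ranged over -0.35 to 0.27 for Acta2, -0.33 to 0.41 for Myh11 and -0.12 to 0.24 for Tpm2 in vivo and -0.29 to 0.61 for Des and -2.32 to 0.22 for Tagln ex vivo, and the in vivo minus ex vivo effect over -0.87 to 0.30 for Des. The causes were not tested. With 7 and 4 animals, and most of the muscle difference in few of them, the number of pairs limits the precision.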
